A study of Mus musculus with 16 samples.

Results

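The respiratory chain of the mitochondrial inner membrane passes electrons from NADH and succinate to oxygen through complexes I to IV, and complex V uses the proton gradient this builds to make ATP. Most subunits are encoded by nuclear genes, and a few are encoded by mitochondrial DNA. In white fat the nuclear genes are known to rise with fat cell differentiation and with a brown-like (beige) state. Rosiglitazone is a thiazolidinedione drug that activates PPARg, the nuclear receptor that drives fat cell differentiation.

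The genes described here are the nuclear subunit genes whose symbols start with Nduf (complex I), Uqcr (complex III), Cox4 to Cox8 (complex IV) or Atp5 (complex V), or are Sdha to Sdhd (complex II). Cox7a1 and Cox8b, isoforms abundant in brown fat and muscle, were set aside. The deposited table holds 14023 genes, of which 90 matched, 2 were set aside and all 88 that remained had at least 1 FPKM (fragments scaled by transcript length and library size) in at least 2 libraries. They comprised 38 genes of complex I, 4 of complex II, 8 of complex III, 14 of complex IV and 15 of complex V. The other members were 7 complex I assembly factors named Ndufaf, plus Atp5s and Atp5sl, which carry a complex V name only. Ndufa4 and Ndufa4l2 are counted by name under complex I, although the Ndufa4 protein is now placed in complex IV.

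The study measured RNA in epididymal (eWAT) and inguinal (iWAT) white fat of wild-type (WT) mice and of mice homozygous for PPARg-K107R, a receptor in which a lysine that carries SUMO is replaced by arginine. All mice ate chow for 10 weeks and then a diet with 60% of calories from fat for 19 weeks. They then received either vehicle (1% methylcellulose) or rosiglitazone at 10 mg per kg of body weight by gavage for 1 week. Depot, genotype and treatment gave 8 groups of 2 libraries, 16 in all. Nothing in the labels ties each library to its own animal, so p-values measure only the spread between these libraries, which may be technical. A base change such as K107R does not show in gene-level FPKM, so the genotype labels could not be checked here.

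The files carry no read counts, so the depth is unknown. Summed FPKM ran from 411746 to 596519 per library, and 11442 to 12898 genes reached 1 FPKM. The median FPKM over all genes was 8.95 to 9.61 in libraries numbered 1 and 5.36 to 8.83 in those numbered 2. The highest of the latter was eWAT K107R rosiglitazone replicate 2. Same-numbered libraries deviated together, so each comparison is given from 2 fits: 1 mean per group, and the same with the replicate number as a block (the blocked fit). In tests, "rose" and "fell" mean an adjusted p under 0.05 over all 13669 genes tested. Counts of members higher in both numbered pairs, or at an unadjusted p under 0.05, stand without the share over all genes. So do counts called with libraries rescaled, left out or fitted by depot. All these counts describe members that share the same libraries, and no excess can be read from them. Libraries of K107R vehicle eWAT held RNA of epididymis genes: the summed level of 8 such markers was 3725 to 4058 FPKM there and at most 7.31 FPKM in every other library.

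The members are short and abundant transcripts. The median over the members of their mean FPKM was 158, against 9.07 over all genes tested. A mean above 100 FPKM was reached by 61 members, and 9 had a mean under 10 FPKM. By complex, the median level was 141 FPKM in complex I, 137 in II, 350 in III, 185 in IV and 341 in V. The most abundant member of each complex was Cox8a (1016 FPKM), Atp5b (819 FPKM), the catalytic subunit of ATP synthase, Uqcr11 (775 FPKM), Ndufb8 (387 FPKM) or Sdha (152 FPKM), the flavoprotein of succinate dehydrogenase. The least abundant was Ndufs5 (3.27 FPKM), Sdhd (129 FPKM), Uqcrfs1 (79.8 FPKM), which encodes the Rieske iron-sulfur protein, Cox6a2 (3.72 FPKM) or Atp5g1 (74.4 FPKM). The assembly factors had a median of 7.29 FPKM. Ndufs5 was the 1 member listed at 0 in any library: it was listed at 0 in 8 of 16 libraries and reached at most 8.95 FPKM, so no fold change is given for it. Of the 88 members, 87 had a transcript length in GENCODE M21, with a median of 755 bases against 2622 over the genes tested, and 62.1% of them were under 1000 bases against 8.8%.

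The 3 promoters below show what lies upstream of genes that rose together. They are the 200 bases before the transcription start from the RefSeq table (GRCm38.p6, minus strand each), written 5′ to 3′ along the gene, with motif matches in capitals. The motifs, searched on both strands, were CCGGAAG (GABP, an ETS factor), CATGCGC (NRF1), AAGGTCA (estrogen-related receptors) and AAGATGG (YY1), factors known for nuclear respiratory gene promoters. They do not overlap each other in these windows. The promoters were chosen as the holder of each motif with the largest change with rosiglitazone in K107R iWAT, so their having a motif is no finding, and none qualified for YY1. A first rule had taken the member with the largest change in each complex (Ndufc1, Sdhb, Uqcrh, Cox5a and Atp5o). It was replaced after its output was seen, because 3 of those 5 windows held no match and 2 did (Sdhb for NRF1, Uqcrh for GABP).
Uqcrh, the complex III hinge protein, chr4:116075071-116075270, GABP match 10 bases before the start: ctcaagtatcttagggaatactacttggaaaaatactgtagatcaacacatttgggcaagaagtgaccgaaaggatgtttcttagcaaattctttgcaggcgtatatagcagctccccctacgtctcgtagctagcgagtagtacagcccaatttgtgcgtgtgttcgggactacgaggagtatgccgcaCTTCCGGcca
Ndufb6, a membrane-arm subunit of complex I, chr4:40279422-40279621, NRF1 match 77 bases before the start: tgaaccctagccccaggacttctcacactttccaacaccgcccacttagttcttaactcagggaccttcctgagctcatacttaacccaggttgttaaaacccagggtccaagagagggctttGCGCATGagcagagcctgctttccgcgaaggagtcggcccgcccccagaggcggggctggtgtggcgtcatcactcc
Atp5l, subunit g of ATP synthase, chr9:44920743-44920942, estrogen-related receptor match 13 bases before the start: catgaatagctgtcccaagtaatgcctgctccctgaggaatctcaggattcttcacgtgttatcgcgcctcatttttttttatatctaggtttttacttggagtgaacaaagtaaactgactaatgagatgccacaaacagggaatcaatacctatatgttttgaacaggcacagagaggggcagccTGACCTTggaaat

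Promoters of 250 bases before to 50 after the start were in the table for 70 members and for 10273 of the genes tested. The GABP letters were in 24.3% of the members' promoters against 18.9% of those tested, NRF1 in 21.4% against 7.6%, the estrogen-related receptor letters in 11.4% against 4.1% and YY1 in 14.3% against 8.1%. Over all 27025 genes of the table the shares were 9.9%, 4.4%, 5.4% and 7.3%. The motifs were chosen with the response known, and a match is only a run of letters. The median log2 change with rosiglitazone in K107R iWAT of members with a motif, against those without, was 0.70 against 0.74 for GABP, 0.74 against 0.72 for NRF1, 0.70 against 0.73 for the estrogen-related receptor letters and 0.77 against 0.72 for YY1.

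**Figure D1:**
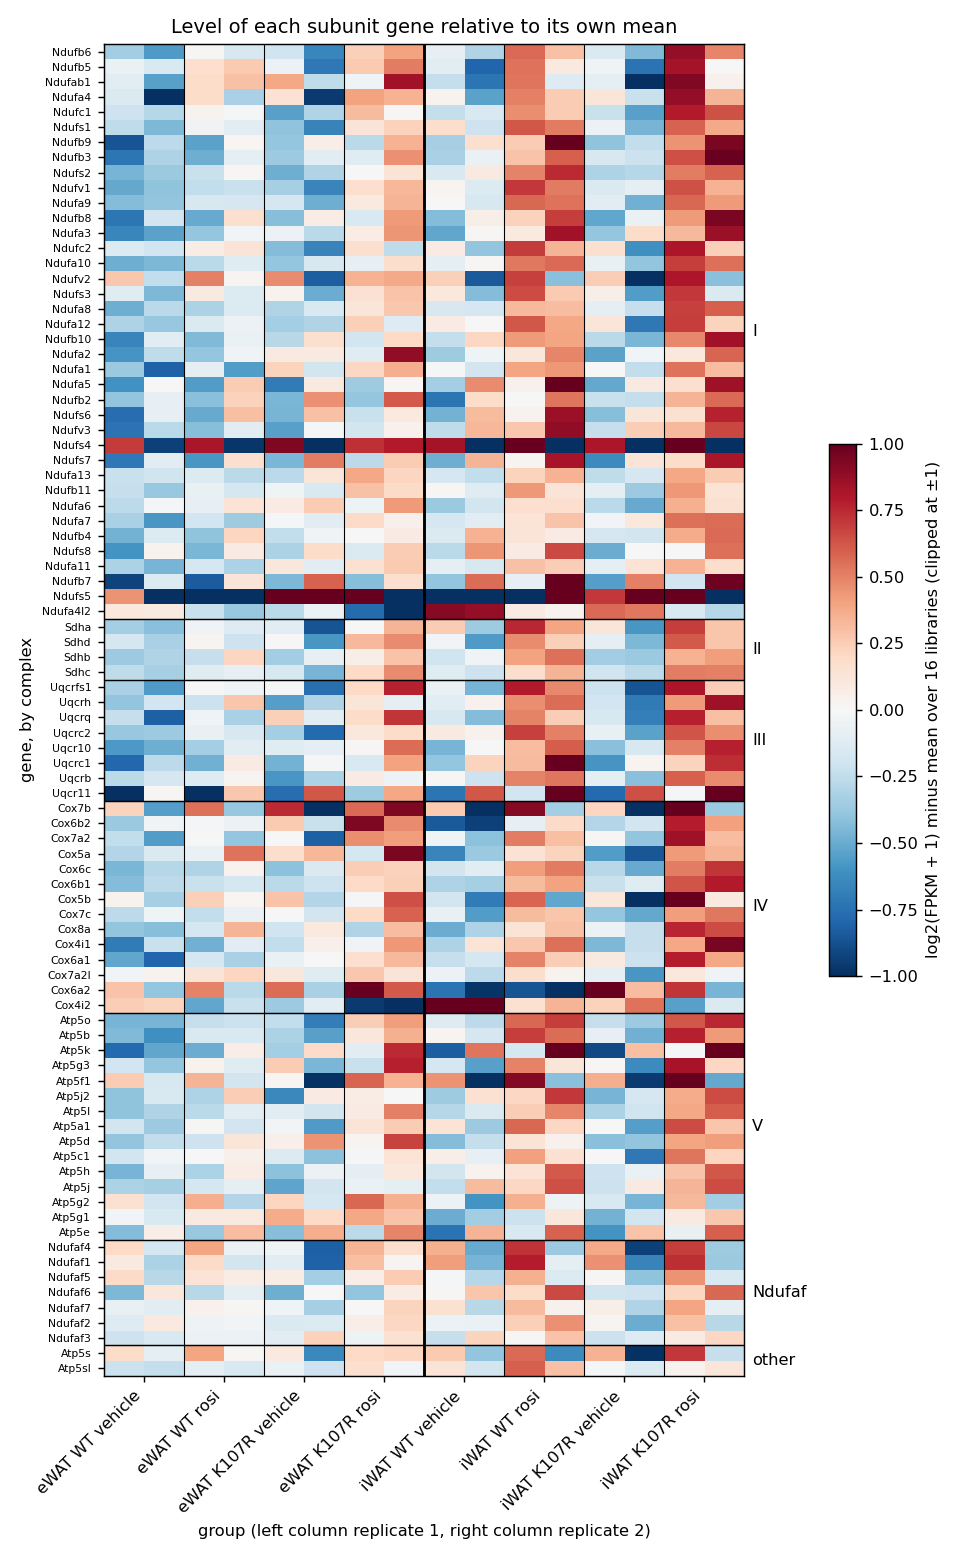
Heatmap of the 88 members (rows, by complex, and within a complex from the highest to the lowest mean in rosiglitazone libraries) in 16 libraries (columns, 2 per group); colour is log2(FPKM + 1) minus the gene's mean over the 16 libraries, clipped at 1 in each direction. The iWAT rosiglitazone columns are mostly red, Cox4i2 and Ndufa4l2 run the other way, and Ndufs4 and Cox7b follow the replicate number in most groups.

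Ordered by the median deviation of the members from their own means, the 6 highest libraries were the 4 of iWAT rosiglitazone (0.32 to 0.51 on the log2 scale) and the 2 of eWAT K107R rosiglitazone (0.09 and 0.29). The lowest were eWAT WT vehicle replicate 1 (-0.32) and iWAT K107R vehicle replicate 2 (-0.29). Summed FPKM of the members was 16672 and 19119 in iWAT WT vehicle and 24578 and 28153 in iWAT WT rosiglitazone. It was 16788 and 16947 in iWAT K107R vehicle and 28007 and 30278 in iWAT K107R rosiglitazone, so the groups did not overlap in either genotype.

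In iWAT of K107R mice, rosiglitazone raised subunit genes of all 5 complexes. Of the 88 members, 18 rose and 1 fell, against 1.92% of all genes tested that rose and 2.28% that fell. With the block 57 rose and 2 fell, against 6.61% and 5.82%. The median log2 change of the members was 0.73 (1.66-fold), against 0.03 over all genes, and 84 of 88 were higher in both numbered pairs of libraries. By complex, the blocked fit called higher 26 of 38 genes in complex I, 3 of 4 in II, 8 of 8 in III, 9 of 14 in IV and 10 of 15 in V, with median log2 changes of 0.69, 0.73, 0.89, 0.85 and 0.74. The Ndufaf assembly factors had a median of 0.32, and 1 of 7, Ndufaf6 (0.60), rose with the block.

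Among single genes in K107R iWAT, Ndufc1, a small membrane-arm subunit of complex I, measured 109 and 86.9 FPKM with vehicle and 220.3 and 198 FPKM with rosiglitazone. Both treated libraries were above both controls, a log2 change of 1.10 (SE 0.16, adjusted p = 0.00343). Uqcrh measured 411 and 287 FPKM with vehicle and 631 and 846 FPKM with rosiglitazone, a log2 change of 1.09 (SE 0.23, adjusted p = 0.0252). Cox6c, a small structural subunit of complex IV, changed by 1.00 (SE 0.16, adjusted p = 0.00544). Atp5o, the oligomycin-sensitivity-conferring stalk subunit of ATP synthase, measured 269 and 246 FPKM with vehicle and 487 and 535 FPKM with rosiglitazone, a log2 change of 0.99 (SE 0.15, adjusted p = 0.00483). Its exons overlap Donson on the same strand, so its values may hold reads of that gene. Leaving out 1 library at a time gave 6 to 15 calls in place of 19, of which 6 to 12 were among the 19, and a fit on iWAT alone made 0 calls.

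Subunits commonly probed by antibody, 1 per complex and with Cox4i1 standing for complex IV, were higher in both treated libraries of K107R iWAT. Ndufb8 of complex I measured 256 and 350.5 FPKM in K107R vehicle iWAT and 494 and 708 FPKM with rosiglitazone, and rose by 0.98 on the log2 scale in the blocked fit only (adjusted p = 5.73e-05, 0.218 without the block). Within each group the library numbered 2 was the higher one, and Ndufb8 exons overlap Gm20538 on the same strand. Sdhb, the iron-sulfur subunit of complex II, measured 109 and 108 FPKM with vehicle and 177 and 186 FPKM with rosiglitazone, and rose by 0.74 (SE 0.16, adjusted p = 0.033). Uqcrc2, a core subunit of complex III, measured 92.9 and 67.3 FPKM with vehicle and 152 and 135 FPKM with rosiglitazone, and rose by 0.85 (SE 0.18, adjusted p = 0.0253). Groups did not overlap for any of these 3 genes. Cox4i1, the ubiquitous isoform of complex IV subunit 4, measured 699 and 812 FPKM with vehicle and 1247 and 1845 FPKM with rosiglitazone, and Atp5a1, the alpha subunit of the ATP synthase head, 375 and 254 FPKM with vehicle and 586 and 451 FPKM with rosiglitazone. Both rose in the blocked fit only (log2 changes 1.01 and 0.74, adjusted p = 0.000176 and 0.0119, against 0.0841 and 0.221 without the block).

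**Figure D2:**
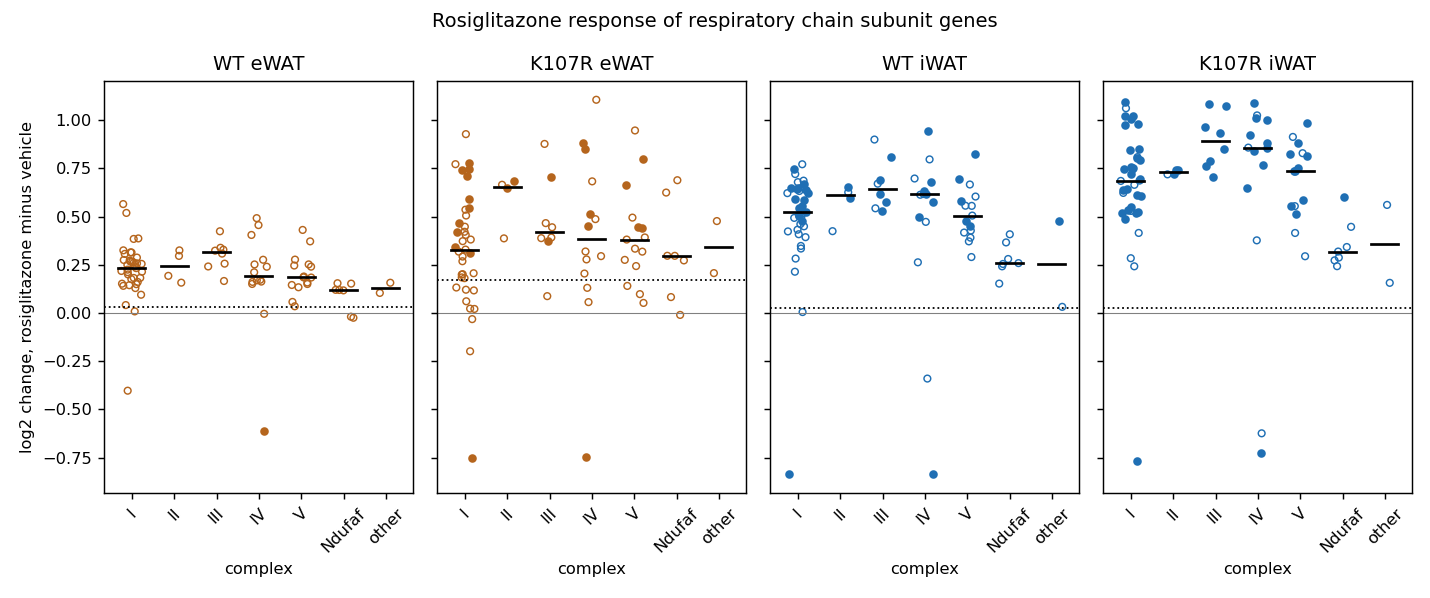
Each point is 1 member (Ndufs5 is not drawn) at its log2 change with rosiglitazone, by complex, in the 4 combinations of genotype and depot; filled points passed the blocked fit, black bars are medians and the dotted line is the median of all genes tested. In K107R iWAT 59 points are filled and complex III has the highest median (0.89); in WT eWAT 1 point is filled.

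In WT iWAT the members moved the same way by a smaller median. The median log2 change was 0.54 (1.45-fold) against 0.03 over all genes, and 81 of 88 members were higher in both pairs. Without the block 2 members rose and 1 fell, against 0.9% and 0.775% of all genes. With the block 33 rose and 2 fell, against 4.02% and 2.96%. The 2 that rose in both fits were Atp5o and Cox6b1. Atp5o measured 288 and 263 FPKM with vehicle and 470 and 510.0 FPKM with rosiglitazone (log2 change 0.83, SE 0.15, adjusted p = 0.0246). Cox6b1, which joins the monomers of complex IV, measured 535 and 529 FPKM with vehicle and 825 and 877 FPKM with rosiglitazone (0.68, SE 0.11, adjusted p = 0.0158). None of the 3 calls remained when any 1 of the 4 libraries was left out or when iWAT was fitted alone. Of the members higher with the block, 31 were called in both genotypes, which is 93.9% of the WT list and 54.4% of the K107R list. The test of the difference, the genotype by drug interaction, called 0 members in iWAT in either fit, against 0.966% and 2.53% of all genes, and 1 member had an unadjusted p under 0.05. The median interaction was 0.17. Ndufc1, among the smallest p-values, had an interaction of 0.54 (SE 0.22, adjusted p = 0.971).

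Other cell types differed between the same iWAT libraries. The median log2 change with rosiglitazone of 11 T and B lymphocyte markers was -1.23 in K107R iWAT (7 of 11 fell) and 0.56 in WT iWAT (1 of 11 rose). Their summed level was 117 to 155 FPKM in K107R vehicle, 39.0 to 47.9 in K107R rosiglitazone, 189 to 243 in WT vehicle and 313 to 361 in WT rosiglitazone. The 13 skeletal muscle markers moved by a median of -1.36 in K107R iWAT (8 of 13 fell) and by -0.12 in WT iWAT (1 of 13 fell). Over all genes 2.28% fell in K107R iWAT, and 0.9% rose and 0.775% fell in WT iWAT. The summed level of the muscle markers was 203 to 218 FPKM in K107R vehicle, 135 to 155 in K107R rosiglitazone, 82.4 to 98.7 in WT vehicle and 85.0 to 103 in WT rosiglitazone. A sum of 9 white fat cell markers, without those listed at 0 in any library, was chosen after seeing the data. It was 10243 to 11617 FPKM in K107R vehicle iWAT and 16335 to 16421 in K107R rosiglitazone. In WT iWAT it was 9395 to 9824 FPKM with vehicle and 12352 to 13381 with rosiglitazone. With all 12 such markers, K107R vehicle iWAT was 17009 to 25300 FPKM and WT vehicle 10476.5 to 12070, with the rosiglitazone sums unchanged. The part of these cells in the changes of the members was not tested. In bulk tissue, fewer cells of a type and less RNA per cell cannot be told apart.

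In eWAT the members moved less. In WT eWAT 0 members passed the test without the block, against 0.446% of all genes, and 3 had an unadjusted p under 0.05. With the block 0 rose and 1 fell, against 1.02% and 1.45%. The median log2 change was 0.21 (1.16-fold) against 0.03 over all genes, and 75 of 88 members were higher in both pairs. Ndufb8 measured 222 and 322 FPKM with vehicle and 259 and 412 FPKM with rosiglitazone, so the groups overlapped. Sdhb measured 108 and 113 FPKM with vehicle and 118 and 162 FPKM with rosiglitazone, a difference of 0.32 (SE 0.16, adjusted p = 1).

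In K107R eWAT 4 members rose and 1 fell, against 1.29% and 3.61% of all genes. With the block 22 rose and 2 fell, against 5.05% and 5.88%. The 4 were Atp5o (log2 change 0.80), Ndufv1 (0.75), the NADH-binding subunit of complex I, Sdhc (0.65), a membrane anchor of complex II, and Cox6b1 (0.45). Atp5o measured 267 and 195 FPKM with vehicle and 376 and 422 FPKM with rosiglitazone (SE 0.15, adjusted p = 0.0101), without overlap. The median change of the members was 0.38 (1.30-fold), but the median of all genes was 0.17. Rescaling the libraries to a common median ratio across genes moved that median by -0.18, brought the members to 0.15 and left 0 calls without the block and 16 with it. Leaving out rosiglitazone replicate 2 or vehicle replicate 2 also left 0 calls, and leaving out rosiglitazone replicate 1 left 3. The vehicle libraries of this contrast are those with epididymis RNA: 8 of 8 epididymis markers fell with rosiglitazone (median -8.31) and 8 of 9 epithelium markers fell (median -2.40, summed level 137 to 145 FPKM with vehicle and 16.9 to 17.1 with rosiglitazone). Of 12 white fat cell markers 1 rose (Adipoq, 0.81) and 1 fell (Fabp4). Their summed level was 27105 to 32838 FPKM with vehicle and 16278 to 17722 FPKM with rosiglitazone. Fabp4 was listed at 0 in 10 libraries, among them both treated ones, and such a 0 can be a failed estimate. Without the 3 markers listed at 0 in any library (Fabp4, Lpl and Car3), a sum chosen after seeing the data, it was 6886 to 7042 FPKM with vehicle and 9368 to 9708 FPKM with rosiglitazone. The part of these cells in the members' change was not tested.

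The eWAT interaction called 0 members in either fit, against 2.53% and 4.2% of all genes, and 3 members had an unadjusted p under 0.05. Its median was 0.13 and became -0.08 with the same scaling, so its sign depended on the scaling. Atp5o had an interaction of 0.56 (SE 0.21, adjusted p = 0.533) and Ndufv1 one of 0.53 (SE 0.21, adjusted p = 0.641).

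**Figure D3:**
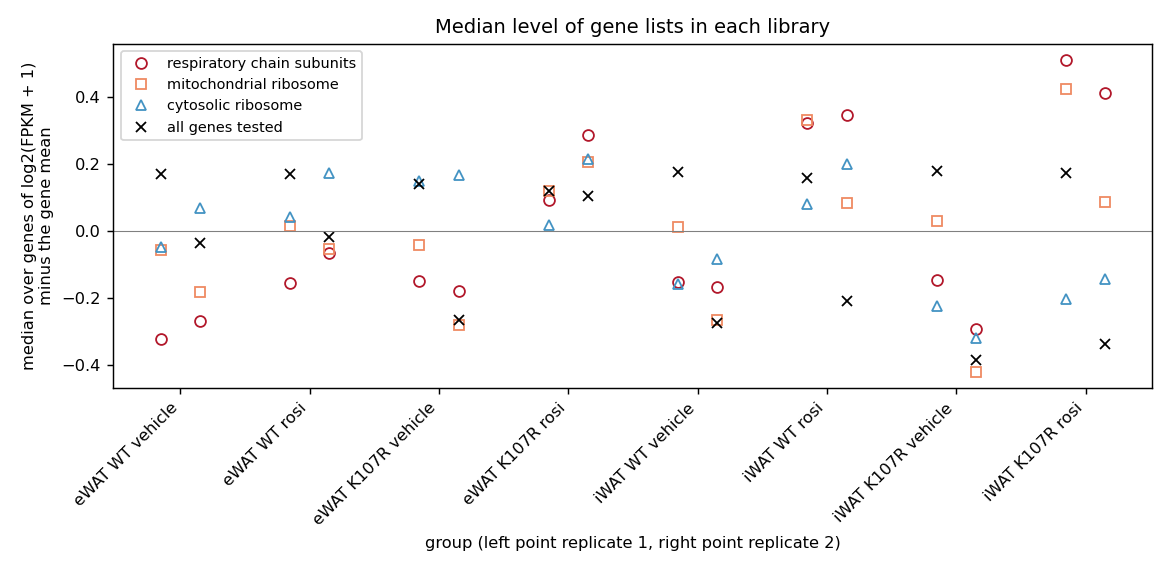
Median over the genes of a list of log2(FPKM + 1) minus the gene's mean, for each of 16 libraries (2 points per group), for the members, the mitochondrial ribosome, the cytosolic ribosome and all genes tested. The members are highest in the 4 iWAT rosiglitazone libraries (0.32 to 0.51), while all genes tested are lower in replicate 2 of every group.

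Genes of other mitochondrial processes, and with the block also proteasome genes, rose in K107R iWAT. There 1.92% of all genes rose, and 6.61% with the block. Of 20 electron carriers and subunits outside the name pattern 6 rose, 11 with the block, with a median log2 change of 0.71. They included Cyc1 (1.04), cytochrome c1 of complex III, and Etfdh (1.02), which passes electrons from fatty acid oxidation to ubiquinone. Of 24 import and mass markers 6 rose, 13 with the block (median 0.58), led by Slc25a5 (1.17), an ADP/ATP carrier. Of 77 mitochondrial ribosome genes 3 rose, 25 with the block (median 0.42), and of 39 assembly factors outside the pattern 3 rose, 8 with the block (median 0.41). The 82 cytosolic ribosome genes had a median of 0.11, with 0 calls and 2 with the block. The 38 proteasome genes had a median of 0.33, with 0 calls and 12 with the block, so blocked calls were not particular to the mitochondrial lists.

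Of 25 regulators of respiratory gene transcription and mitochondrial DNA, 0 rose and 1 fell in K107R iWAT, and 3 rose and 1 fell with the block (median 0.10), against 2.28% and 5.82% of all genes that fell. Nrip1, a corepressor of oxidative genes, fell by 0.72 on the log2 scale. Esrra, the estrogen-related receptor alpha, rose by 0.53 in the blocked fit (adjusted p = 0.00882, 0.279 without the block). Ppargc1a, the coactivator PGC-1alpha, differed by 0.10 (adjusted p = 1). The list of 12 brown and beige genes includes Cox7a1 and Cox8b, whose values are given again below. Of the 12 genes 4 rose in K107R iWAT, 8 with the block (median 0.99). In WT iWAT 3 rose, 7 with the block (median 0.92), against 0.9% and 4.02% of all genes. In K107R eWAT 6 rose, 9 with the block (median 1.43), against 1.29% and 5.05%, among them Cox7a1, Cox8b and Ucp1 (2.97), the uncoupling protein.

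The subunit isoforms set aside changed more in eWAT of K107R mice than any member called there. Cox7a1 measured 10.6 and 15.7 FPKM with vehicle and 36.6 and 36.3 FPKM with rosiglitazone, a log2 change of 1.43 (SE 0.26, adjusted p = 0.0084). Cox8b measured 30.8 and 31.9 FPKM with vehicle and 81.3 and 91.8 FPKM with rosiglitazone, a change of 1.44 (SE 0.17, adjusted p = 0.00047). Cox8a, the ubiquitous partner of Cox8b, measured 854 and 1048 FPKM with vehicle and 795 and 1216 FPKM with rosiglitazone, so its groups overlapped. In iWAT too, Cox7a1 and Cox8b were higher with rosiglitazone, without overlap. Cox7a1 went from 28.9 and 30.5 to 52.0 and 63.7 FPKM in WT, and from 12.8 and 22.5 to 33.9 and 43.3 in K107R. Cox8b went from 84.4 and 99.8 to 157 and 216 FPKM in WT, and from 55.6 and 64.3 to 88.9 and 106 in K107R.

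Cox4i2 and Ndufa4l2 were lower with rosiglitazone while most other subunits were higher. Cox6a2 was also lower in both pairs of iWAT, without passing: its log2 difference was -0.34 in WT (adjusted p = 0.378 with the block) and -0.62 in K107R (adjusted p = 0.0506 with the block, 0.933 without). Cox4i2 and Ndufa4l2 are low-abundance isoforms known to be induced by hypoxia and abundant in pericytes: Cox4i2 replaces Cox4i1, and Ndufa4l2 is the paralog of Ndufa4. Ndufa4l2 measured 34.4 and 33.5 FPKM in iWAT WT vehicle and 18.9 and 18.3 FPKM with rosiglitazone, and fell by 0.84 on the log2 scale (SE 0.14, adjusted p = 0.0167). It measured 26.9 and 26.1 FPKM in iWAT K107R vehicle and 15.9 and 14.4 FPKM with rosiglitazone, and fell by 0.77 (adjusted p = 0.0122). In eWAT K107R it went from 14.6 and 17.1 to 10.0 and 8.01 FPKM and fell by 0.75 (adjusted p = 0.00943). In eWAT WT it measured 19.2 and 19.1 FPKM with vehicle and 15.1 and 13.5 FPKM with rosiglitazone, a difference of -0.40 that did not pass (adjusted p = 0.58). Treated libraries were below the controls in all 4 comparisons. Ndufa4l2 exons overlap Shmt2 on the opposite strand.

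Cox4i2 measured 16.6 and 18.6 FPKM in iWAT WT vehicle and 8.76 and 10.1 FPKM with rosiglitazone, and 9.32 and 11.8 FPKM in iWAT K107R vehicle and 5.05 and 6.98 FPKM with rosiglitazone. It fell in the blocked fit in all 4 rosiglitazone comparisons, by 0.83 and 0.73 in WT and K107R iWAT and by 0.61 and 0.75 in WT and K107R eWAT. Without the block it passed in none of them (adjusted p from 0.0641 to 0.458). As a percent of Cox4i1 FPKM, Cox4i2 was 1.33 to 2.16 in iWAT vehicle libraries and 0.378 to 0.763 in iWAT rosiglitazone libraries. Ndufa4l2 was 7.05 to 13.8 percent of Ndufa4 in iWAT vehicle and 2.45 to 4.36 percent in iWAT rosiglitazone libraries. Neither pair of iWAT ranges overlapped. In eWAT both did with the genotypes pooled: Cox4i2 was 0.721 to 1.61 percent of Cox4i1 with vehicle and 0.259 to 0.751 percent with rosiglitazone. Ndufa4l2 was 3.75 to 11.1 percent of Ndufa4 in eWAT with vehicle and 1.79 to 4.80 percent with rosiglitazone. Within each genotype neither eWAT ratio overlapped. Cox4i2 was at least 1.14 percent with vehicle and at most 0.751 with rosiglitazone in WT, and at least 0.721 and at most 0.381 in K107R. Ndufa4l2 was at least 6.06 percent with vehicle and at most 4.80 with rosiglitazone in WT, and at least 3.75 and at most 2.16 in K107R. In K107R against WT, Cox4i2 was lower with the block in vehicle iWAT (-0.69, adjusted p = 0.0274), rosiglitazone iWAT (-0.58, adjusted p = 0.0185) and rosiglitazone eWAT (-0.61, adjusted p = 0.033).

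A list of 11 mural cell genes, chosen after these values were seen, had median log2 changes with rosiglitazone of -0.36 in WT eWAT, -0.35 in K107R eWAT, -0.58 in WT iWAT and -0.59 in K107R iWAT, with 1, 2, 2 and 3 of the 11 falling. Its summed level in iWAT was 347 to 524 FPKM in WT vehicle, 234 to 297 in WT rosiglitazone, 273 to 404 in K107R vehicle and 214 to 284 in K107R rosiglitazone. The 8 endothelial markers had medians of -0.48, -0.06, -0.55 and -0.28 in the same order, with 0, 0, 1 and 0 falling. Their part in the fall of Cox4i2 and Ndufa4l2 was not tested.

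**Figure D4:**
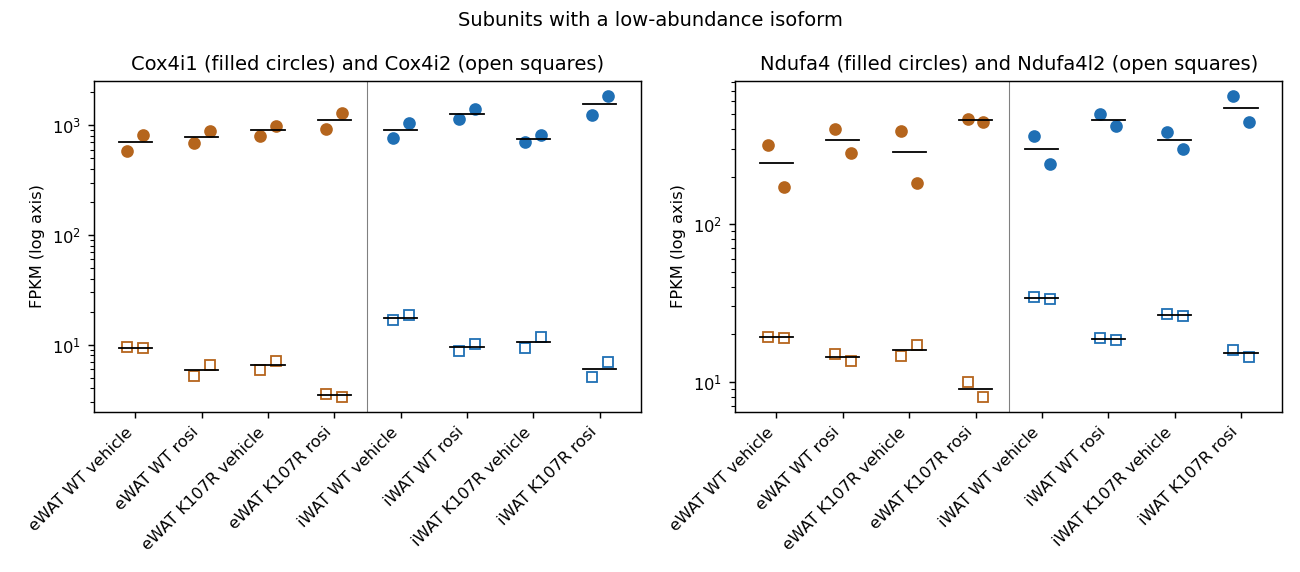
FPKM on a log axis of Cox4i1 and Cox4i2 (left) and Ndufa4 and Ndufa4l2 (right) in the 2 libraries of each of 8 groups, with a bar at the group mean; filled circles are the abundant isoform and open squares the low-abundance one. In iWAT, Ndufa4l2 is 26.1 to 34.4 FPKM in vehicle and 14.4 to 18.9 FPKM in rosiglitazone libraries.

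Between K107R and WT at the same treatment, 0 members passed without the block in any of the 4 comparisons, and 2 to 6 passed with it. In vehicle eWAT 0 members passed, against 3.35% of all genes, and 7 had an unadjusted p under 0.05. With the block 4 were higher in K107R and 0 lower, against 4.77% and 3.53%: Cox6a1 (0.62), Ndufa1 (0.61), Ndufb7 (0.60) and Ndufs7 (0.44). The block with median-ratio scaling called 13. The median difference of the members, K107R minus WT, was 0.11, against -0.13 over all genes. Cox6a1, the ubiquitous isoform of a small subunit of complex IV, measured 473 and 391 FPKM in WT and 646 and 678 FPKM in K107R (adjusted p = 0.0236 with the block, 0.124 without). The epididymis RNA lies in the K107R libraries of this comparison. In rosiglitazone eWAT 0 passed, against 0.907%, and 19 had an unadjusted p under 0.05. With the block 4 were higher and 2 lower, against 1.91% and 1.56%: Cox6a2 (0.89), Cox4i1 (0.49), Atp5l (0.49) and Cox6b1 (0.41) against Cox4i2 (-0.61) and Ndufa4l2 (-0.61). The block with median-ratio scaling called 3. The median difference was 0.26, against 0.01 over all genes, and 62 members were higher in K107R in both pairs.

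In vehicle iWAT 0 members passed, against 0.578%, and 4 had an unadjusted p under 0.05. With the block 1 was higher (Cox6a2) and 1 lower (Cox4i2), against 0.988% and 1.13%. In rosiglitazone iWAT 0 passed, against 4.13%, and 8 had an unadjusted p under 0.05. With the block 2 were higher (Cox6a2 and Cox6b1) and 1 lower (Cox4i2), against 2.92% and 6.45%. The median difference of the members, K107R minus WT, was -0.10 in vehicle iWAT and 0.07 in rosiglitazone iWAT, against -0.06 and -0.01 over all genes.

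Cox6a2, the heart and skeletal muscle isoform of subunit 6a, had the largest genotype difference of the members called in iWAT. It measured 1.45 and 1.07 FPKM in WT vehicle and 8.29 and 4.06 FPKM in K107R vehicle, a difference of 1.61 with the block (SE 0.18, adjusted p = 0.00154, 0.507 without). It measured 1.24 and 0.413 FPKM in WT rosiglitazone and 5.71 and 1.95 FPKM in K107R rosiglitazone, a difference of 1.32 (adjusted p = 0.000942 with the block). K107R was above WT in every iWAT library, and the library numbered 1 was the higher one in each group. The gene lies at chr7:128205435-128206387 (GRCm38, minus strand), and its exons overlap those of Itgad, an integrin gene, on the opposite strand. The library kit keeps strand, but whether the FPKM were counted by strand is not given in the sources used here, so reads of the genes cannot be told apart. Itgad measured 2.76 to 13.6 FPKM in the 8 WT libraries and 34.0 to 57.5 FPKM in the 8 K107R libraries. The 13 skeletal muscle markers were also higher in K107R iWAT, with a median of 2.02 with vehicle (10 of 13 rose) and 0.83 with rosiglitazone (7 of 13 rose). The part of either in the Cox6a2 value was not tested.

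**Figure D5:**
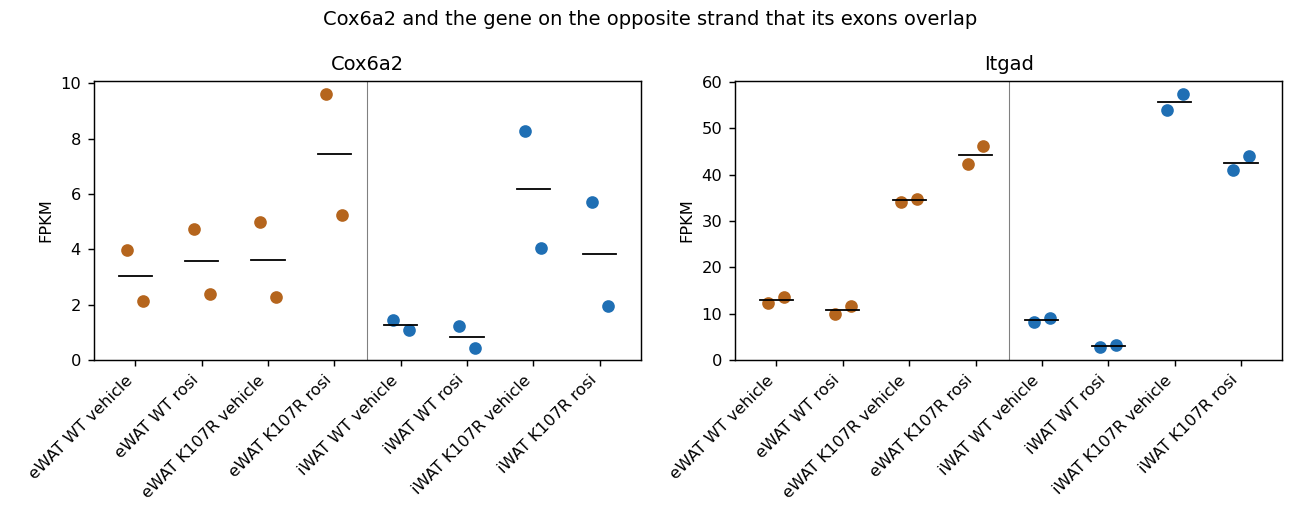
FPKM of Cox6a2 (left) and Itgad (right) in the 2 libraries of each of 8 groups, with a bar at the group mean. Itgad is 34.0 to 57.5 FPKM in K107R libraries and 2.76 to 13.6 FPKM in WT libraries in both depots, and Cox6a2 is at most 1.45 FPKM in WT iWAT and at least 1.95 FPKM in K107R iWAT.

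Between depots, averaged over genotype and treatment, 23 members were lower in eWAT than in iWAT and 1 was higher, against 12.5% and 19.9% of all genes. With the block 52 were lower and 4 higher, against 21.0% and 34.8%. The median difference, eWAT minus iWAT, was -0.25, while that of all genes was 0.10. Cox4i2 (-0.68, adjusted p = 0.000316) and Ndufa4l2 (-0.64, adjusted p = 4.88e-05) had the largest differences of those called without the block, followed by Ndufv3 (-0.56) and Ndufv1 (-0.47). Atp5g1, which encodes the c subunit that forms the rotating ring of ATP synthase, was the 1 member higher in eWAT (0.31, SE 0.08, adjusted p = 0.0101). It measured 65.5 to 96.0 FPKM in eWAT and 51.4 to 88.3 FPKM in iWAT, so the depots overlapped. In a fit without the K107R vehicle eWAT libraries, K107R vehicle was left out of the means of both depots. There the difference of Atp5g1 was 0.21 and did not pass, while 31 members were lower. Macrophage markers differed between depots as well: 9 of 9 were higher in eWAT (median 1.76), with a summed level of 3610 to 4860 FPKM in eWAT and 923 to 1390 in iWAT. The part of cell makeup in the depot difference was not tested.

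The rosiglitazone response of the members was smaller in eWAT than in iWAT at the median, by 0.31 on the log2 scale (median difference of the responses -0.31, against 0.07 over all genes). No single member passed without the block (0 calls by limma, against 2.21% of all genes, with 13 members at an unadjusted p under 0.05). With the block the difference was negative for 6 and positive for 1, Cox6a2, against 2.87% and 0.958%. Cox6a2 was higher with rosiglitazone in eWAT and lower in iWAT. Itgad, which overlaps it on the opposite strand, had a difference of 0.88 (limma adjusted p = 0.000147 with the block). Without the K107R vehicle eWAT libraries the members' difference was taken from the WT responses only, with fewer libraries, and their blocked count was 0.

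Members also differed between the libraries numbered 1 and 2. In all 8 groups 17 members were higher in replicate 2 and 8 were lower, counts given without the share over all genes. The median difference, replicate 2 minus 1, was -0.18 to 0.17 over the members by group. Over all genes tested it was -0.53 to -0.03, so a difference by replicate number is not particular to the members. Ndufs4, an accessory subunit of complex I, measured 26.1 to 40.9 FPKM in the 8 libraries numbered 1 and 5.79 to 7.75 FPKM in 7 of the 8 numbered 2. The exception was eWAT K107R rosiglitazone replicate 2 with 27.9 FPKM, the library noted above for its high median. Uqcr11 ran the other way, with 287 to 672 FPKM in replicate 1 and 684 to 1654 FPKM in replicate 2. Across the 87 members with a length, transcript length and the mean difference between replicate 2 and 1 had a Spearman rho of -0.284, given as a description, since the members share all 16 libraries. The shortest 29 (321.5 to 623 bases) had a median difference of 0.08 and the longest 29 (1142 to 3632 bases) one of -0.17.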

How the data were processed

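The authors deposited 1 table of FPKM for the 16 libraries. Per the labels' protocols, 4 ug of total RNA went into stranded mRNA libraries read as 75 nt single ends. The submitters' processing notes name CASAVA 1.8.2, TopHat2 2.0.12, Cufflinks 2.2.1 and mm10; strand handling is not given in the sources used here. FPKM divide by length and depth, so counts and counting intervals could not be had.

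Groups came from the sample labels. Genes with at least 1 FPKM in 2 libraries were tested on log2(FPKM + 1) with limma 3.58.1 (trend, R 4.3.3), 1 mean per group over all 16 libraries, two-sided, with Benjamini-Hochberg adjustment over all 13669 genes of a comparison. A log2 change on this scale understates that of low genes. The fit without the block was tested on simulated data with independent noise in each library. That simulation held no effect shared by replicate number, so it does not show how the fit behaves with one. The replicate number pairs the libraries by their values: the difference of replicate 2 minus 1 correlated above 0.1 between groups in 28 of 28 pairs of groups (0.121 to 0.791), although the labels do not say what a number shares. Blocked values are therefore given where they differ.

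Members, gene lists, motifs and tests were chosen with earlier results of these data known. Named genes are the subunit of each complex commonly probed by antibody, isoform pairs, the most and least abundant member of each complex, members listed at 0, up to 4 called members per direction (else the 2 smallest p) and up to 3 called genes of other lists. Other names were chosen after their values were seen. Alternatives were a pseudocount of 0.1, no filter, median-ratio scaling, the block, 1 depot alone and leaving out each library. Lengths and overlaps are from GENCODE M21 and promoters from RefSeq, both on GRCm38.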

Additional observations from a re-analysis of the deposited data

Results flagged for a closer look

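The response to rosiglitazone differed between depots for 7 members, by the test of the difference of the responses (eWAT minus iWAT, averaged over genotypes) in the fit with the replicate block. None passed without the block, and the 7 were looked for in the blocked fit only after that. In the blocked fit 2.87% of all genes passed with a negative difference and 0.958% with a positive one. The log2 differences were -0.632 for Ndufb9, -0.544 for Ndufs7, -0.519 for Cox4i1, -0.513 for Ndufb8, -0.478 for Cox6b1 and -0.436 for Uqcrc1, each with a smaller response in eWAT, and 1.004 for Cox6a2. The difference of Cox6a2 with rosiglitazone was 0.16 and 0.88 in WT and K107R eWAT and -0.34 and -0.62 in WT and K107R iWAT, of which the K107R eWAT one passed with the block (adjusted p = 0.0106). The adjusted p from limma with the block was 0.00454 for Ndufb8, the smallest, and 0.0315 for Uqcrc1, the largest; without the block it was 0.073 for Cox6b1 and 1.00 for the other 6. Both numbered pairs gave the same direction for each of the 7. The K107R vehicle eWAT libraries hold epididymis RNA. With them left out, the difference was taken from the WT responses only, and 0 members passed in either fit. That setting compares fewer libraries, so it does not show what the 7 calls rest on. Exons of Ndufb8 and Ndufb9 overlap another gene on the same strand, and those of Cox6a2 overlap Itgad on the opposite strand. Itgad had a difference of the responses of 0.88 (limma adjusted p = 0.000147 with the block, 0.00435 without). Its change with rosiglitazone was -0.23 and 0.35 in WT and K107R eWAT and -1.26 and -0.38 in WT and K107R iWAT. The part of Itgad reads in the Cox6a2 value was not tested.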

How the results depend on the processing

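The members called, in both directions together, depended most on the replicate block. With the block the count went from 0 to 1 with rosiglitazone in WT eWAT, from 5 to 24 in K107R eWAT, from 3 to 35 in WT iWAT and from 19 to 59 in K107R iWAT. For K107R against WT it went from 0 to 4 in vehicle eWAT, 6 in rosiglitazone eWAT, 2 in vehicle iWAT and 3 in rosiglitazone iWAT, and it went from 24 to 56 between depots and from 0 to 7 for the depot difference of the response. The block with median-ratio scaling gave 16, 34 and 53 for rosiglitazone in K107R eWAT, WT iWAT and K107R iWAT, 13, 3, 1 and 3 for genotype in the order above, 61 between depots and 9 for the depot difference. Scaling without the block gave 0 in K107R eWAT and 12 in K107R iWAT. The depot fitted alone gave 0 for rosiglitazone in K107R eWAT, WT iWAT and K107R iWAT. Leaving out 1 library gave 0 to 5 in K107R eWAT, 0 to 0 in WT iWAT, 6 to 15 in K107R iWAT and 19 to 26 between depots. A setting chosen after seeing the data dropped the K107R vehicle eWAT libraries and left K107R vehicle iWAT out of the depot means. There the depot count was 32, and 57 with the block. A pseudocount of 0.1 or no filter on low values left the counts within 1.5 times. Counts in settings other than the block alone stand without the share over all genes, and no excess can be read from them. The direction reversed in WT eWAT with 1 library left out for Ndufb8 (-0.0453 to 0.6197), Cox4i1 (-0.0664 to 0.4107), Cox6a2 (-0.2196 to 0.5451) and Cox6b2 (-0.0061 to 0.3285), and in K107R eWAT for Cox8a (-0.2499 to 0.3627); with scaling, with and without the block, it reversed in K107R eWAT for Cox7a2l (-0.0285) and Cox8a (-0.1775). None of these had passed the test. Except where fewer libraries entered the fit, the cause was not tested. Depth is unknown, and 2 libraries a group limit the precision.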
